A study of Harpegnathos saltator with 35 samples.

Results

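In primary cultures labelled as neurons, taken from the ant Harpegnathos saltator, 97 of 9873 tested genes were selected by a threshold rule. They were at higher levels 24 h after a hormone switch than in the matching baseline, whichever hormone was given. A further 2 genes met the rule and were left out by name. Dissociated central brains were cultured for 5 days with 1 of 2 hormones at 2 µM, the moulting steroid 20-hydroxyecdysone (20E) or juvenile hormone III (JH3), and the cultures were then moved to medium with the other hormone, also at 2 µM. Polyadenylated RNA was sequenced from 35 cultures in 8 groups. Cultures held in JH3 comprised a baseline (n = 4) and those given 20E for 30 min (n = 5), 6 h (n = 6) or 24 h (n = 4). Cultures held in 20E comprised a baseline (n = 5) and those given JH3 for 30 min (n = 3), 6 h (n = 5) or 24 h (n = 3). Both baselines had their medium changed to one with the solvent DMSO and were taken 30 min later. The 24 h cultures were therefore older than their baselines and had spent a day in the new medium in both switches, so an effect of time or of the medium change cannot be told apart from an effect that both hormones share. Each sample is a mixture of brain cell types, in which fewer cells of a type and less RNA per cell cannot be told apart.

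The members were chosen by measured values. Levels are FPKM (fragments per kilobase of gene, scaled by the authors to the reads of each library), and a difference is that of log2(mean FPKM + 1) between 2 groups. A gene was tested where FPKM was at least 1 in at least 3 libraries, and it was a member where both differences, 24 h of 20E minus JH3 baseline and 24 h of JH3 minus 20E baseline, were at least 0.4 and every 24 h library lay above the mean of its own baseline. The 20E condition was met by 848 genes (8.59% of those tested) and the JH3 condition by 510 (5.17%). Both were met by 99 genes (1.00%), which is 11.7% of the genes meeting the 20E condition and 19.4% of those meeting the JH3 condition. The rule names 8 genes to leave out, and 2 of these met it: Kr-h1 (LOC112589664), the main transcriptional target of juvenile hormone in insects, and LOC105187987. Since these differences chose the genes, they are given as a description with no test.

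**Figure D1:**
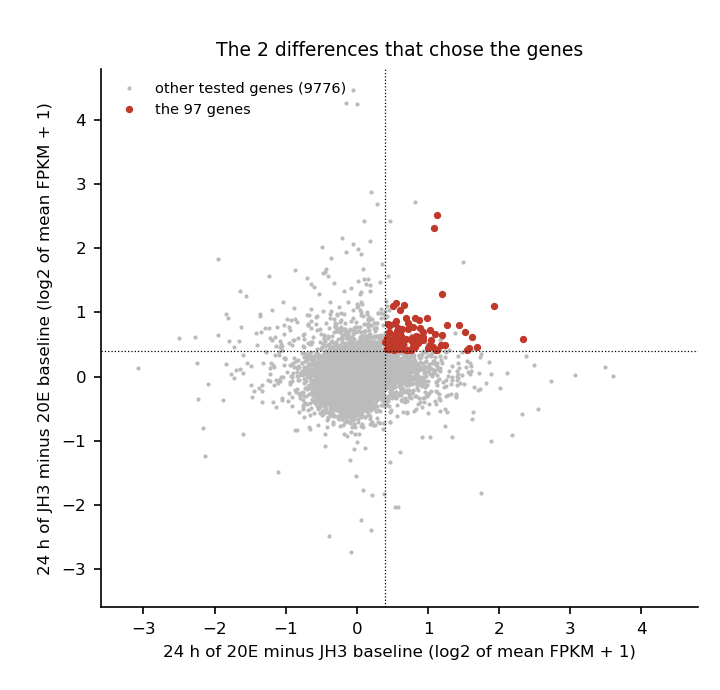
Difference of log2(mean FPKM + 1) between 24 h of 20E and the JH3 baseline (horizontal axis) and between 24 h of JH3 and the 20E baseline (vertical axis), one point per tested gene, with the 97 members in red and dotted lines at 0.4. Grey points inside the upper right corner had a 24 h library at or under its baseline mean or are left out by name; among the members 61 had the larger difference after 20E and 36 after JH3.

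The 2 hormones work through separate receptors. 20E binds a heterodimer of Ecr and usp and switches on early genes for transcription factors, among them Eip74EF and E75, which in turn control later genes. Juvenile hormone acts through the receptor Met and Kr-h1, and in many insects it modifies or opposes the ecdysone response. In this ant, shifts of both hormones accompany the change of a worker into a reproductive. Roles of single genes given here are those known from Drosophila melanogaster or from animals in general.

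RefSeq symbols were available for 34 of the members, while 63 are known only by number and have no role assigned here. By RefSeq biotype 95 are protein coding, 1 is a long noncoding RNA and 1 a pseudogene. Their highest mean level in a 24 h group was 356 FPKM (Cdk5alpha) and their lowest 1.08 FPKM (LOC105191416). Depth ran from 5937935 to 22650336 gene-assigned reads per library (median 10844871), as the smallest steps between FPKM values showed. Sequencing was done in 3 runs (A, B and C), which were not balanced: all 3 libraries of 24 h of JH3 came from run C, and the JH3 baseline had no library from run C. Of the neuron markers sought, 5 of 6 were among the symbols (nSyb, Syt1, brp, Snap25 and Syx1A) and all were detected, with a summed level of 196 to 449 FPKM per library; elav was not among the symbols used here. The nuclear receptor gene Hr4 (LOC105190338), high in 20E cultures, set a library apart from its group. It was at 40.1 FPKM in replicate 5 of JH3 cultures given 20E for 30 min, against 4.9 to 6.5 FPKM in the other 4 replicates. In that library usp and E75, at 46.9 and 52.1 FPKM, lay within the ranges of those replicates (44.3 to 75.4 and 41.2 to 52.3 FPKM). The 20E baseline had 4.74 to 14.2 FPKM of usp and 61.9 to 94.3 FPKM of E75. The reason for the Hr4 value was not tested, and the tests that use this group are given without replicate 5 as well. JH3 baseline replicate 4 had the least Hr4, at 1.63 FPKM, against 5.48 to 7.46 FPKM in the other 3 replicates; without both libraries 96 genes met the rule, 88 of them members.

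Across the members the difference after 20E had a median of 0.67 (range 0.40 to 2.33) and the difference after JH3 a median of 0.57 (range 0.41 to 2.52). Over all tested genes these medians were -0.02 and 0.01. A difference above 1 was reached by 23 members after 20E, by 8 after JH3 and by 4 after both: LOC105183542, LOC112588745, LOC105186969 and LOC105180825, none with an assigned name. At the other end 44 members had a smaller difference under 0.5. All 24 h libraries of 20E lay above all JH3 baseline libraries for 68 members (9.42% of tested genes did so), and all 24 h libraries of JH3 lay above all 20E baseline libraries for 31 (3.50% of tested genes). The member just inside the threshold after 20E was LOC105182277 (0.40), and those just inside after JH3 were LOC105191385 (0.41) and DIP-lambda (0.41), a surface protein of the immunoglobulin family. Just outside, with a difference after JH3 less than 0.4 by under 0.01, lay LOC105186330, LOC105188905 and LOC105186777.

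**Figure D2:**
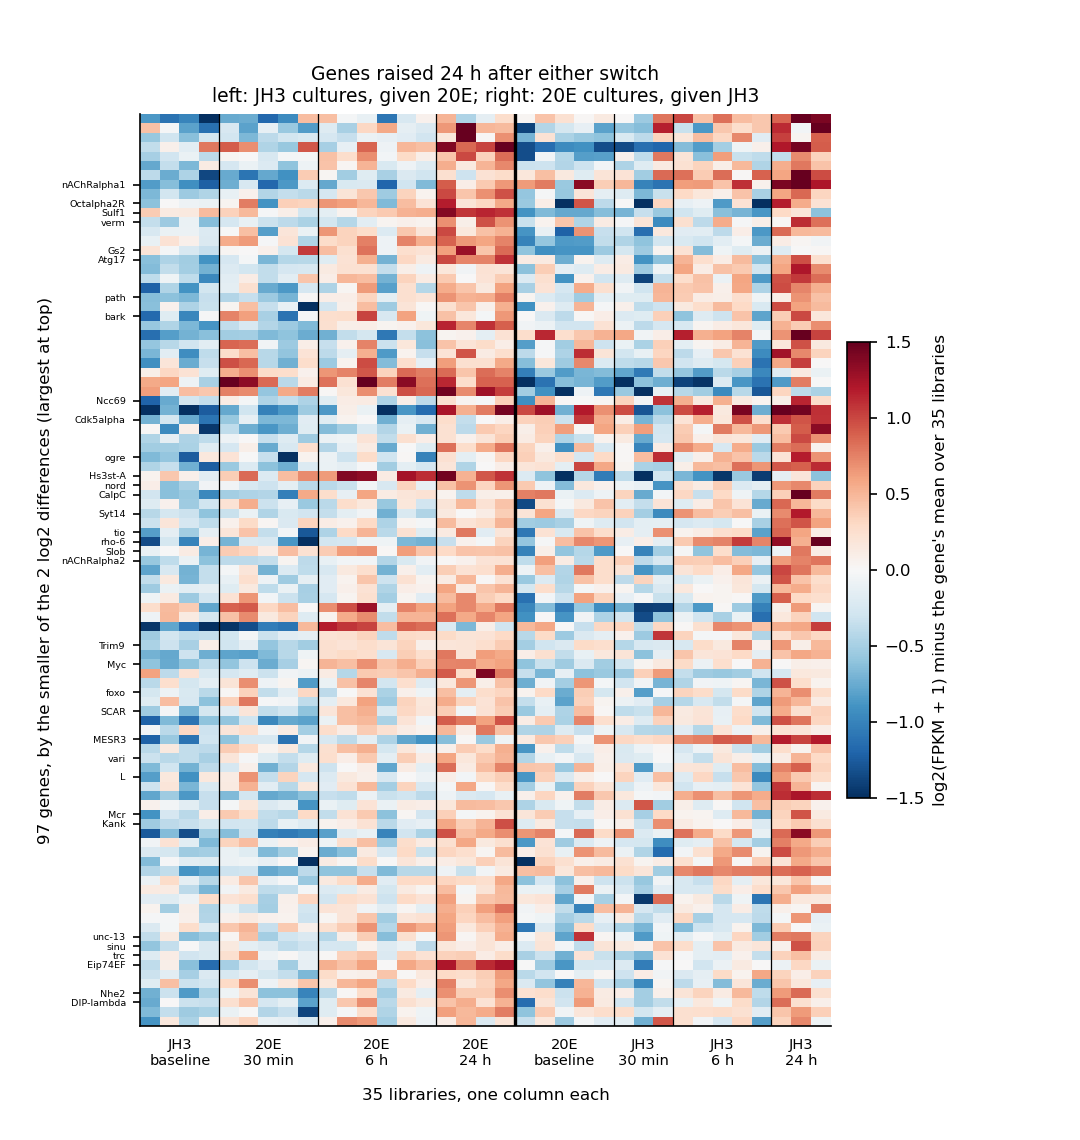
Each row is one of the 97 members, ordered by the smaller of its 2 differences, and each column one of the 35 libraries in order of time within each switch; colour is log2(FPKM + 1) minus the gene's mean over all libraries. Both 24 h blocks, which with the baselines chose the members, are mostly red, while baseline columns differ between libraries of the same group.

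The median deviation of the members, each taken from its own mean over 35 libraries on the log2(FPKM + 1) scale, summarised a library in one value. It lay between -0.47 and -0.24 in the JH3 baseline, between -0.37 and 0.09 after 30 min of 20E, between -0.36 and 0.33 after 6 h and between 0.26 and 0.51 after 24 h. In the other switch it lay between -0.43 and 0.10 in the 20E baseline, between -0.42 and -0.06 after 30 min of JH3, between -0.38 and 0.21 after 6 h and between 0.33 and 0.64 after 24 h. The 24 h libraries lay above every baseline and 30 min library of either switch, whereas replicate 3 of 6 h of 20E (0.33) was within the range of the 24 h libraries. The baseline and 24 h libraries chose the members, so the place of the 24 h libraries above the others is a description. Libraries of a single group were spread widely. The lowest libraries of 4 groups were 20E baseline replicate 3 (-0.43), 30 min of JH3 replicate 2 (-0.42), 6 h of JH3 replicate 5 (-0.38) and 6 h of 20E replicate 4 (-0.36). These same libraries had the lowest trend of expression with counted gene length in their groups. It was -0.14, -0.15, -0.18 and -0.14 log2 units per doubling of length. The lowest library also had the lowest trend in 30 min of 20E and 24 h of JH3, but not in the JH3 baseline or 24 h of 20E. JH3 baseline replicate 3, the lowest library of all (-0.47), had a trend of -0.06, against -0.09 in replicate 1. The part of this trend in the low values was not tested.

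**Figure D3:**
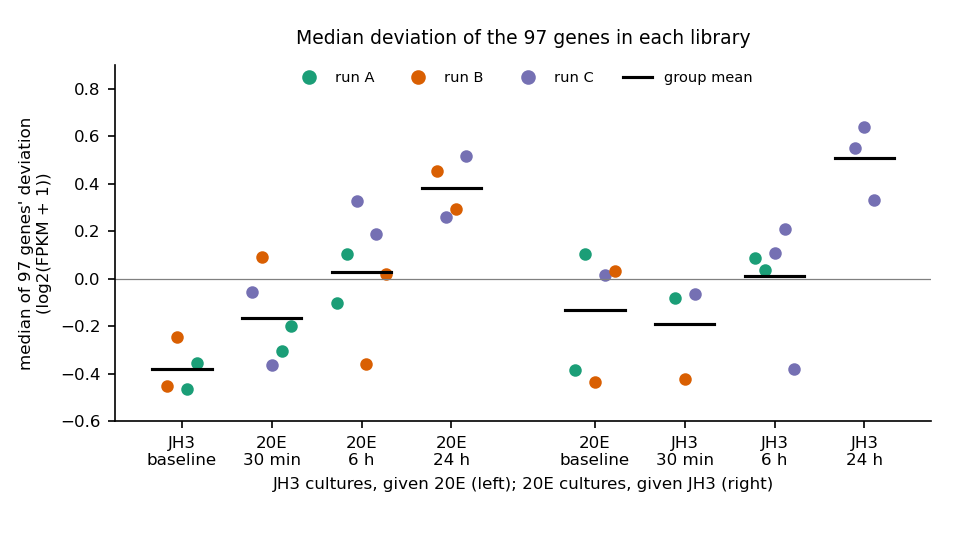
Median deviation of the 97 members (log2(FPKM + 1) units) in each library, by group, with points coloured by sequencing run and a line at the group mean. The 24 h libraries lie between 0.26 and 0.64 and the baseline libraries between -0.47 and 0.10, and these same libraries chose the members.

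The 20E baseline was above the JH3 baseline for 71 of 97 members, with a median difference of 0.25 (0.01 over all tested genes). Both baselines had a part in the choice of members, so this is a description. The 30 min libraries had no part in it. In them 52 of 97 members were higher in 20E cultures than in JH3 cultures, with a median difference, adjusted for run, of 0.02. Against the 30 min groups, the difference of 24 h of 20E had a median of 0.47 and was above 0 for 95 members, and that of 24 h of JH3 had a median of 0.68 and was above 0 for 95. The 24 h libraries in it are those that chose the members, so this comparison is a description too. Groups without overlap in this comparison numbered 35 members after 20E (5.84% of tested genes) and 52 after JH3 (9.79%). Between 30 min and the baseline the median difference was 0.23 for 20E, above 0 for 87 members, and -0.07 for JH3, above 0 for 40. The rule favours genes with low baseline values, so this comparison is not independent of the choice and is also a description. The differences varied between single runs. Within run B the median was 0.65 between 24 h of 20E and the JH3 baseline, with 97 of 97 above 0, against 0.67 over all runs. Within run C it was 0.42 between 24 h of JH3 and the only 20E baseline library of that run, with 79 above 0, against 0.57 over all runs, and 0.61 between 24 h and 30 min of JH3, with 82 above 0. Between 24 h and 30 min of 20E it was 0.27 within run B (71 above 0) and 0.55 within run C (94 above 0). With the 30 min groups in place of the baselines the rule selected 132 genes, of which 47 were among the 97. Leaving out 20E baseline replicate 4 gave 156 genes, and leaving out replicate 3 of 24 h of JH3 gave 176.

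Eip74EF (LOC105182180), an ETS-domain transcription factor and classic early ecdysone gene, was the only member among the 14 measured genes of the ecdysone response list. It stood at 55.7, 40.4, 52.2 and 56.4 FPKM in cultures given 20E for 24 h, against 17.7, 25.0, 14.8 and 10.1 FPKM in the JH3 baseline, a difference of 1.54. In cultures given JH3 for 24 h it stood at 22.1, 29.3 and 21.8 FPKM, against 23.4, 15.8, 12.4, 19.3 and 19.5 FPKM in the 20E baseline, a difference of 0.41. The first pair of groups did not overlap, and in the second 1 baseline library lay within the 24 h values. Of the 14 list genes, 9 met the 20E condition, 4 the JH3 condition and only Eip74EF both. E75 (LOC105187469), an early nuclear receptor gene, had differences of 3.49 after 20E and 0.16 after JH3, and usp (LOC105190116) had -1.24 and 0.75.

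Myc (LOC105186502), a transcription factor that drives cell growth, was at 8.49, 8.58, 7.44 and 7.70 FPKM after 24 h of 20E, against 2.79, 2.38, 2.77 and 3.40 FPKM in the JH3 baseline, a difference of 1.24. In 20E cultures given JH3 for 24 h it was at 4.74, 5.10 and 5.04 FPKM, against 2.78, 3.55, 2.96, 3.94 and 2.99 FPKM in the 20E baseline, a difference of 0.49. Neither pair overlapped. At 30 min of JH3 it had already 3.74, 4.91 and 5.35 FPKM, which overlaps the 24 h values. The forkhead factor foxo (LOC105183293), held back by insulin signalling, was low throughout: 4.52, 2.65, 3.85 and 4.04 FPKM after 24 h of 20E, against 2.38, 2.84, 2.44 and 2.05 FPKM in the JH3 baseline. It had 4.76, 5.52 and 3.83 FPKM after 24 h of JH3, against 3.17, 3.96, 1.41, 4.20 and 2.38 FPKM in the 20E baseline, and both pairs overlapped. It was the only member among 18 measured genes of the signalling list.

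The tests used only the 19 libraries of the 30 min and 6 h groups, which had no part in the choice of genes. limma was fitted to log2(FPKM + 1) over all 9873 genes with group and run as terms, and a gene was called at a Benjamini-Hochberg adjusted p under 0.05, two-sided. Between 6 h and 30 min of 20E, 5 members rose and 0 fell (0.344% and 0.0506% of tested genes). An unadjusted p under 0.05 was reached by 18 members, all higher, against 4.85% of tested genes. The members' median difference was 0.19, against 0.00 over all tested genes, and 79 of 97 were above 0. Without replicate 2 of 30 min of 20E the median was 0.36. Without replicate 5 it was 0.16 with 6 members called, all higher, among 35 genes higher and 8 lower.

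The member with the largest difference in this test, LOC105190091, rose by 1.87 (SE 0.25, adjusted p = 0.0012) and was not highest at 24 h. It had 8.46, 9.42, 11.8, 11.3 and 35.8 FPKM after 30 min of 20E and 35.3, 49.7 and 58.3 FPKM (lowest, median and highest of 6) after 6 h, with 21.6, 15.4, 26.8 and 20.2 FPKM after 24 h. The library at 35.8 FPKM is replicate 5, which stood apart by Hr4, and it alone overlapped the 6 h values; without it the difference was 2.19. In 20E cultures this gene was at 37.3, 38.2 and 52.8 FPKM after 24 h of JH3, against 35.8, 38.2, 25.1, 19.7 and 31.5 FPKM in the 20E baseline. Myc rose by 0.92 (SE 0.14, adjusted p = 0.0041), with 6.34, 7.01 and 8.21 FPKM (lowest, median and highest of 6) after 6 h of 20E, against 2.80, 3.62, 2.41, 3.06 and 4.86 FPKM after 30 min. These groups did not overlap, and the 6 h level was already near that at 24 h.

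Eip74EF rose by 0.80 (SE 0.14, adjusted p = 0.0096), with 23.6, 33.5 and 36.1 FPKM (lowest, median and highest of 6) after 6 h of 20E, against 16.4, 19.1, 20.8, 16 and 21.4 FPKM after 30 min. LOC105185175 rose by 0.79 (SE 0.13, adjusted p = 0.0049) and LOC105186388 by 0.56 (SE 0.10, adjusted p = 0.011). In these 3 genes the calls were lost in the limma fit with the replicate number as a block, at adjusted p = 0.127, 0.0683 and 0.0852 in the order named, and with runs B and C alone, at adjusted p = 0.574, 0.0945 and 0.774. In run A alone none of the 5 was called, and leaving out any 1 of the 19 libraries lost none of the 5 calls. Complete separation of the 6 h and 30 min libraries of 20E, with 6 h higher, was seen in 5 members (0.871% of tested genes): Eip74EF, Myc, LOC105186388, LOC105189508 and Trim9, a ubiquitin ligase of neurons, which missed the threshold at adjusted p = 0.055. E75 rose by 3.36 (SE 0.21, adjusted p = 1.81e-07), so 2 of the 14 ecdysone genes passed this test, both higher.

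Between 6 h and 30 min of JH3, 0 members passed in limma (0.0304% of tested genes were higher and 0% lower). An unadjusted p under 0.05 was reached by 13 members, 12 of them higher, against 5.72% of tested genes, and limma's voom on recovered reads called 0 members too. The members' median was 0.16, with 67 above 0. Without replicate 1 of 30 min of JH3 the limma fit called 5 members, all higher, among 70 genes higher and 51 lower, and without replicate 2 the members' median was 0.06. Libraries at 6 h were all above those at 30 min for 8 members (1.24% of tested genes): Cdk5alpha, an activator of the neuronal kinase Cdk5, rho-6 of the rhomboid family, MESR3 and 5 genes known by number, LOC105180825, LOC105181571, LOC105182284, LOC105186631 and LOC105189613. None of the 14 ecdysone genes passed this test.

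The difference between the switches was tested directly. For the 6 h against 30 min difference of JH3 minus that of 20E, 0 members passed in limma in either direction (0.0203% of tested genes were higher and 0.0405% lower, 0.0608% in all) and 0 with voom, while 14 had an unadjusted p under 0.05, against 5.62% of tested genes. The difference was -1.69 (SE 0.41, adjusted p = 0.206) for LOC105190091, -0.70 (SE 0.23, adjusted p = 0.465) for Myc and -0.56 (SE 0.22, adjusted p = 0.741) for Eip74EF. Without replicate 5 of 30 min of 20E, the library set apart by Hr4, LOC105190091 passed (-1.99, adjusted p = 0.00149), as it did with library weights (adjusted p = 0.00807), and it was the only member called in each of these fits. Over all tested genes those fits called 2 and 6 higher and 8 and 26 lower. Without replicate 1 of 30 min of JH3, 1 member was higher and 1 lower, among 34 genes higher and 36 lower. The other 4 members called after 20E did not pass this test in any fit that was run. Group means in the order 30 min, 6 h and 24 h were increasing for 67 members with 20E (17.9% of tested genes) and for 69 with JH3 (26.9%); the 24 h values that this order uses also chose the members.

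**Figure D4:**
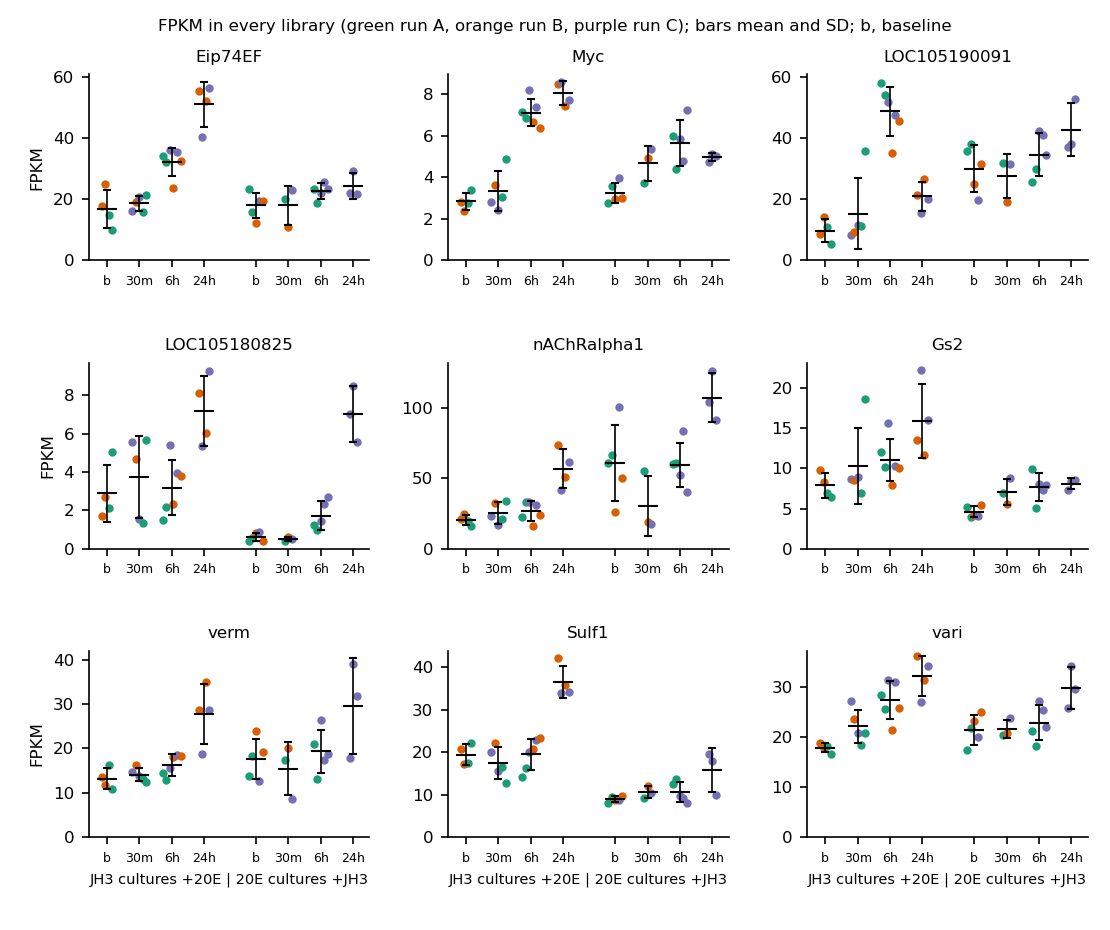
FPKM of 9 members in every library, in order of time within each switch (b, baseline), with mean and SD; colours are sequencing runs. Eip74EF and Myc were higher at 6 h and 24 h of 20E, LOC105190091 was highest at 6 h of 20E, and LOC105180825 was under 1 FPKM in every 20E baseline library.

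Members with roles at synapses included 2 of the 6 measured subunits of the nicotinic acetylcholine receptor, the main fast excitatory receptor of insect brains; this list was drawn up after values were seen. nAChRalpha1 (LOC105191783) was at 73.8, 41.5, 51.1 and 61.5 FPKM after 24 h of 20E, against 21.3, 24.5, 20.0 and 16 FPKM in the JH3 baseline, a difference of 1.43. After 24 h of JH3 it was at 105, 127 and 91.5 FPKM, against 61.1, 67.0, 26.0, 101 and 50.4 FPKM in the 20E baseline, a difference of 0.81. The first pair did not overlap; in the second the baseline library of run C, at 101 FPKM, lay within the 24 h values. nAChRalpha2 (LOC105190488) was at 18.2, 18.9, 20.9 and 21.1 FPKM after 24 h of 20E, against 11.8, 13.7, 16.8 and 11.4 FPKM in the JH3 baseline. It was at 28.8, 31.0 and 32.3 FPKM after 24 h of JH3, against 13.6, 28.1, 19.7, 13.4 and 21.8 FPKM in the 20E baseline, without overlap in either pair. Of the other subunits, nAChRalpha4, nAChRbeta1 and nAChRbeta2 met the 20E condition alone, with differences of 0.79, 0.65 and 0.44, and nAChRalpha6 met neither. No subunit was called in limma between 6 h and 30 min of either hormone.

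Octalpha2R (LOC105190682), a receptor for octopamine, was at 69.6, 34.7, 37.6 and 45.3 FPKM after 24 h of 20E, against 19.4, 30.2, 28.6 and 28.1 FPKM in the JH3 baseline. With JH3 for 24 h it was at 69.4, 44.7 and 35.3 FPKM, against 20.1, 32.4, 9.44, 58.9 and 22.7 FPKM in the 20E baseline, so only the first pair was free of overlap. unc-13 (LOC105181265), needed to prime synaptic vesicles for release, was the only member of 10 measured general neuron genes. It was at 126, 81.0, 91.1 and 117 FPKM after 24 h of 20E, against 61.5, 87.0, 50.8 and 54.4 FPKM in the JH3 baseline. It was at 136, 138 and 101 FPKM after 24 h of JH3, against 78.3, 89.1, 45.5, 171 and 81.0 FPKM in the 20E baseline, where the run C library was the highest of all. Syt14, a synaptotagmin, averaged 27.3 ± 3.08 FPKM (SD, n = 4) after 24 h of 20E and 18.2 ± 1.95 (n = 4) in the JH3 baseline, and 44.0 ± 11.5 (n = 3) after 24 h of JH3 and 29.4 ± 5.92 (n = 5) in the 20E baseline. The summed neuron markers, none of them a member, moved in the same direction: 372 to 410 FPKM after 24 h of 20E, against 261 to 387 FPKM in the JH3 baseline, and 304 to 342 FPKM after 24 h of JH3, against 205 to 371 FPKM in the 20E baseline. Their ranges overlapped in both switches, and the part of neuronal content in these differences was not tested. The highest member by level was Cdk5alpha, at 174 ± 30.3 FPKM (SD, n = 4) after 24 h of 20E and 107 ± 26.1 (n = 4) in the JH3 baseline, and 356 ± 20.1 (n = 3) after 24 h of JH3 and 237 ± 80.1 (n = 5) in the 20E baseline.

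Gs2 (LOC105186780), the glutamine synthetase that turns glutamate into glutamine and is used as a glial marker, was the only member of 7 measured genes of the glia list. It was at 13.5, 22.3, 11.7 and 16 FPKM after 24 h of 20E, against 9.84, 8.26, 7.01 and 6.45 FPKM in the JH3 baseline, a difference of 0.93. The 24 h libraries of JH3 had 7.27, 8.44 and 8.59 FPKM, against 5.26, 4.00, 4.15, 4.12 and 5.51 FPKM in the 20E baseline, a difference of 0.70. Neither pair overlapped, but the values after 24 h of JH3 were within the range of the JH3 baseline. The 5 glia markers found (repo, Gs2, moody, axo and drpr, none at 0 in every library) summed to 59.0 to 84.6 FPKM after 24 h of 20E, against 56.4 to 87.8 FPKM in the JH3 baseline. In the other switch they summed to 84.1 to 112 FPKM after 24 h of JH3, against 51.6 to 71.1 FPKM in the 20E baseline, without overlap. Gs2 is part of this sum, and its values in these same libraries made it a member. The engulfment receptor drpr held much of that sum, at 53.1 ± 10.0 FPKM (SD, n = 3) after 24 h of JH3 and 25.7 ± 5.40 (n = 5) in the 20E baseline. Whether glial content plays a part in the difference of Gs2 after JH3 was not tested. Marker sums of muscle, hemocytes and matrix, fat body and photoreceptors overlapped between 24 h and baseline in both switches.

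Septate junctions are the diffusion barrier of insect epithelia and of the glia that wrap the brain. Of 26 measured genes tied to them, listed after values were seen, 5 were members. Of the same 26 genes, 7 met the 20E condition and 9 the JH3 condition, and 0 were called in limma between 6 h and 30 min of either hormone (0.395% and 0.0304% of tested genes were). vari (LOC105192377), a scaffold protein of these junctions, was at 36.1, 26.9, 31.3 and 34.1 FPKM after 24 h of 20E, against 18.7, 17.7, 18.2 and 16.6 FPKM in the JH3 baseline. The JH3 switch gave 25.8, 34.1 and 29.4 FPKM after 24 h, against 17.3, 21.8, 23.1, 19.9 and 25.0 FPKM in the 20E baseline, and neither pair overlapped. bark (LOC105189033), a membrane protein of the corners where 3 cells meet, was at 5.47, 4.36, 3.70 and 6.49 FPKM after 24 h of 20E, against 1.14, 3.21, 1.42 and 3.73 FPKM in the JH3 baseline. It was at 5.16, 8.49 and 4.36 FPKM after 24 h of JH3, against 3.78, 3.12, 2.63, 3.82 and 4.13 FPKM in the 20E baseline, free of overlap in the second pair alone.

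verm (LOC105189656), a chitin-modifying protein that needs these junctions for its secretion and that also stands on the epidermis and tracheal list (1 of 4 measured genes), was at 28.7, 18.8, 35.1 and 28.7 FPKM after 24 h of 20E, against 13.5, 11.7, 16.3 and 10.9 FPKM in the JH3 baseline. It had 17.8, 39.0 and 31.9 FPKM after 24 h of JH3, against 13.8, 18.2, 23.8, 12.6 and 19.3 FPKM in the 20E baseline, where the groups overlapped. The claudin sinu (LOC105180728) was at 44.8, 42.4, 45.5 and 42.5 FPKM after 24 h of 20E, against 26.0, 30.6, 39.5 and 33.8 FPKM in the JH3 baseline. It was at 41.5, 77.9 and 50.5 FPKM after 24 h of JH3, against 34.1, 45.5, 38.4, 30.1 and 45.3 FPKM in the 20E baseline. Mcr (LOC105184526), a thioester protein of the same junctions, was at 9.26, 6.79, 7.28 and 8.25 FPKM after 24 h of 20E, against 3.28, 5.71, 5.01 and 7.56 FPKM in the JH3 baseline. It was at 9.08, 14.3 and 7.74 FPKM after 24 h of JH3, against 8.04, 9.43, 5.27, 6.34 and 7.55 FPKM in the 20E baseline. For Mcr both pairs overlapped, and for sinu the second did. Nrx-IV and cora, core septate junction genes outside the members, stayed under 0.4 in both switches. Their differences were 0.36 after 20E and 0.26 after JH3 for Nrx-IV and 0.35 and 0.12 for cora. Other genes of this list outside the members met the condition of a single switch. ogre (LOC105184485), 1 of 3 measured innexins, which form gap junctions, was at 14.6, 11, 12.6 and 15.5 FPKM after 24 h of 20E, against 7.41, 7.93, 4.58 and 13.9 FPKM in the JH3 baseline. It was at 14.3, 29.1 and 20.1 FPKM after 24 h of JH3, against 16, 13.7, 14.8, 10.1 and 15.4 FPKM in the 20E baseline, with overlap in both.

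Among transporters, path (LOC105189512), an amino acid transporter of the SLC36 family needed for growth of large neurons, was at 26.3, 23.6, 24.1 and 27.9 FPKM after 24 h of 20E, against 10.0, 10.2, 9.71 and 12.5 FPKM in the JH3 baseline, a difference of 1.19. After 24 h of JH3 it was at 17.5, 26.4 and 22.2 FPKM, against 16.7, 13.9, 12.8, 10.8 and 14.5 FPKM in the 20E baseline, a difference of 0.64, and neither pair overlapped. Its 6 h against 30 min difference of 20E, 0.56, missed the threshold in limma at adjusted p = 0.197. Ncc69 (LOC105182005), a sodium, potassium and chloride cotransporter, was at 28.8, 24.8, 23.7 and 31.0 FPKM after 24 h of 20E, against 9.93, 13.9, 19.7 and 18.6 FPKM in the JH3 baseline. It was at 25.7, 54.3 and 29.5 FPKM after 24 h of JH3, against 12.3, 34.8, 24.4, 23.9 and 24.6 FPKM in the 20E baseline, where the groups overlapped. Atg17 (LOC105192376), which works with the kinase Atg1 to start autophagy, was at 82.5, 68.8, 69.3 and 87.7 FPKM after 24 h of 20E, against 26.2, 29.3, 28.3 and 21.5 FPKM in the JH3 baseline, a difference of 1.51. Atg17 had 59.5, 80.9 and 48.4 FPKM after 24 h of JH3, against 44.6, 45.1, 24.3, 42.5 and 35.6 FPKM in the 20E baseline, a difference of 0.70. Neither pair overlapped. None of the 10 measured genes of the apoptosis and autophagy list, which does not hold Atg17, was a member.

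Heparan sulfate chains on the cell surface bind growth factors and morphogens, and 2 of 11 measured genes that build or carry them, listed after values were seen, were members. Sulf1 (LOC105185708), which removes sulfate groups from the chains, was at 42.1, 34.0, 35.8 and 34.3 FPKM after 24 h of 20E, against 20.7, 17.2, 17.4 and 22.2 FPKM in the JH3 baseline, a difference of 0.88. After 24 h of JH3 it was at 19.5, 17.9 and 9.84 FPKM, against 7.90, 9.55, 8.79, 8.74 and 9.72 FPKM in the 20E baseline, a difference of 0.75. Neither pair overlapped, although the library at 9.84 FPKM was close to the baseline. Hs3st-A (LOC105192616), which adds sulfate to the chains, was at 45.1, 23.2, 31.1 and 35 FPKM after 24 h of 20E, against 16.5, 21.5, 16.8 and 14.2 FPKM in the JH3 baseline. It was at 14.4, 18.1 and 10.1 FPKM after 24 h of JH3, against 13.7, 10.2, 3.83, 11.5 and 7.2 FPKM in the 20E baseline, where the groups overlapped. Both genes were lower in 20E cultures than in JH3 cultures, at baseline and in the test that follows.

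The hormone that the cultures had been kept in was compared 30 min after the switch, between 20E cultures given JH3 and JH3 cultures given 20E. In limma 10 members were higher in 20E cultures (7.31% of tested genes) and 9 lower (9.53%). Together these were 19.6% of the members, near the 16.8% of all tested genes called in this comparison. With voom on recovered reads 18 members were higher and 10 lower, against 1037 and 678 of all tested genes. The members' median was 0.02. The calls rest on 3 and 5 libraries: without replicates 1, 2 and 3 of 30 min of JH3 in turn, 4, 6 and 5 members were higher and 8, 4 and 9 lower. Without replicates 2 and 4 of 30 min of 20E in turn, 9 and 6 were higher and 5 and 8 lower, and the median without replicate 2 was 0.21. Without replicate 5 of 30 min of 20E, 14 were higher and 10 lower. Lower in 20E cultures in every fit that left out 1 library were LOC105184860 (-1.83, SE 0.28, adjusted p = 0.000289), LOC112588053 (-1.09, SE 0.17), LOC105192327 (-1.66, SE 0.29) and LOC105180825 (-1.54, SE 0.33, adjusted p = 0.00438). LOC105186631 was higher in each of those fits (0.63, SE 0.12, adjusted p = 0.00188). These 5 calls were lost in run A alone, and that of LOC105186631 with runs B and C alone too.

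Sulf1 was lower in 20E cultures by limma (-0.70, SE 0.18, adjusted p = 0.0128), and so were Hs3st-A (-1.26, SE 0.36, adjusted p = 0.023) and Slob, which binds a potassium channel (-0.76, SE 0.22, adjusted p = 0.0243). The call of Slob was lost without replicates 2 and 3 of 30 min of JH3 in turn (adjusted p = 0.15 and 0.101) and without replicate 2 of 30 min of 20E (adjusted p = 0.0847). Without replicate 2 of 30 min of JH3 the adjusted p was 0.0564 for Sulf1 and 0.185 for Hs3st-A, and without replicate 2 of 30 min of 20E it was 0.0848 for Hs3st-A. Ncc69 was higher in 20E cultures (0.74, SE 0.20, adjusted p = 0.0207), but not without replicate 3 of 30 min of JH3 (adjusted p = 0.178). MESR3 was higher (0.75, SE 0.21, adjusted p = 0.0249), but not without replicate 1 of 30 min of 20E (adjusted p = 0.0569) nor without replicate 1, 2 or 3 of 30 min of JH3 (adjusted p = 0.0678, 0.0889 and 0.0762). LOC105189129 and LOC105188791 were higher by 0.85 and 0.95, and neither call held without replicate 1 of 30 min of JH3 (adjusted p = 0.071 and 0.137). LOC105189614 was higher by 0.82, and its call was lost without replicate 2 of 30 min of 20E (adjusted p = 0.0584) and without replicates 1 and 2 of 30 min of JH3 in turn (adjusted p = 0.0942 and 0.153). sinu, named after its values were seen, was higher by 0.40 (SE 0.12, adjusted p = 0.0293), but not without replicate 1, 2 or 3 of 30 min of JH3 (adjusted p = 0.0816, 0.0642 and 0.114) nor without replicate 3 or 4 of 30 min of 20E (adjusted p = 0.0615 and 0.0604).

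Members with large differences varied in how far their libraries were spread. LOC105185423 had the largest difference after 20E, 2.33, with 75.9, 46.4, 55.4 and 88 FPKM after 24 h of 20E, against 7.23, 19.2, 10.4 and 12.8 FPKM in the JH3 baseline. It was at 102, 88.4 and 69.4 FPKM after 24 h of JH3, against 64.5, 78.2, 19, 73.8 and 51.8 FPKM in the 20E baseline, a difference of 0.59, and the groups overlapped in this switch alone. LOC105180825 was at 7.0, 8.47 and 5.53 FPKM after 24 h of JH3, against 0.384, 0.578, 0.814, 0.859 and 0.387 FPKM in the 20E baseline, a difference of 2.32 with every library well apart. After 24 h of 20E it was at 8.13, 5.34, 6.02 and 9.25 FPKM, against 1.69, 2.68, 2.12 and 5.03 FPKM in the JH3 baseline, a difference of 1.08. Its levels at 24 h were thus alike in both switches, while the baselines were apart. LOC112588745 was at 18.5, 7.66 and 76.9 FPKM after 24 h of JH3, against 2.42, 5.58, 6.48, 7.23 and 4.11 FPKM in the 20E baseline, a difference of 2.52 in which 1 library held most of the mean. The same gene had 13.1, 25.5, 11.6 and 11.4 FPKM after 24 h of 20E, against 11.1, 7.84, 4.13 and 3.11 FPKM in the JH3 baseline. LOC105186969 was at 1.86, 18.2, 1.57 and 3.09 FPKM after 24 h of 20E, against 0.71, 1.07, 0.644 and 1.12 FPKM in the JH3 baseline, and again 1 library held most of the mean. LOC105183542 was at 7.59, 16.8 and 11.5 FPKM after 24 h of JH3, against 3.81, 5.32, 4.50, 3.76 and 4.17 FPKM in the 20E baseline, and at 5.71, 2.41, 3.28 and 4.64 FPKM after 24 h of 20E, against 1.59, 1.19, 1.37 and 0.612 FPKM in the JH3 baseline.

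Of the other named members, nord averaged 3.99 ± 0.591 FPKM (SD, n = 4) after 24 h of 20E and 1.93 ± 0.694 (n = 4) in the JH3 baseline, and 4.16 ± 0.689 (n = 3) after 24 h of JH3 and 2.50 ± 0.858 (n = 5) in the 20E baseline. CalpC, a calpain-family protein, averaged 3.66 ± 0.671 FPKM (SD, n = 4) after 24 h of 20E and 2.16 ± 0.602 (n = 4) in the JH3 baseline, and 8.56 ± 4.36 (n = 3) after 24 h of JH3 and 4.86 ± 2.06 (n = 5) in the 20E baseline. The zinc-finger factor tio had differences of 0.65 and 0.55 after 20E and JH3, rho-6 had 0.54 and 0.87, Slob 0.54 and 0.83 and Trim9 0.53 and 0.49. None of the measured genes of the lists for immunity, heat shock, oxidative defence, immediate early genes, cell cycle, lipids, sugar metabolism, transmitters, neuropeptides, adhesion, muscle, hemocytes, fat body, photoreceptors or the clock was a member; the ion channel list held nAChRalpha1 alone, 1 of 14. The juvenile hormone list had 1 measured gene, Kr-h1, which met the rule with differences of 0.81 and 2.73 after 20E and JH3 and is no member because the rule leaves it out by name.

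Members were long genes by the length that the FPKM values imply. Their counted length, worked out from the FPKM steps, had a median of 7054 bases (quartiles 4636 and 12460), against 4111 bases (2464 and 6720) over tested genes. When tested genes were divided by counted length into 4 groups of equal size, the members numbered 8, 15, 22 and 52 from shortest to longest, or 0.324%, 0.608%, 0.891% and 2.11% of each group. Over all tested genes the median difference ran from -0.14 in the shortest group to 0.13 in the longest after 20E, and from -0.04 to 0.06 after JH3, so length moved with both contrasts that chose the members. The library trend of expression with counted length averaged 0.04 ± 0.03 log2 units per doubling (SD, n = 4) after 24 h of 20E and -0.03 ± 0.05 (n = 4) in the JH3 baseline, and 0.05 ± 0.07 (n = 3) after 24 h of JH3 and 0.01 ± 0.10 (n = 5) in the 20E baseline. With each library's trend removed before the rule was applied, which was added as an alternative once the data had been seen, 84 genes met it and 71 of the 97 were among them.

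**Figure D5:**
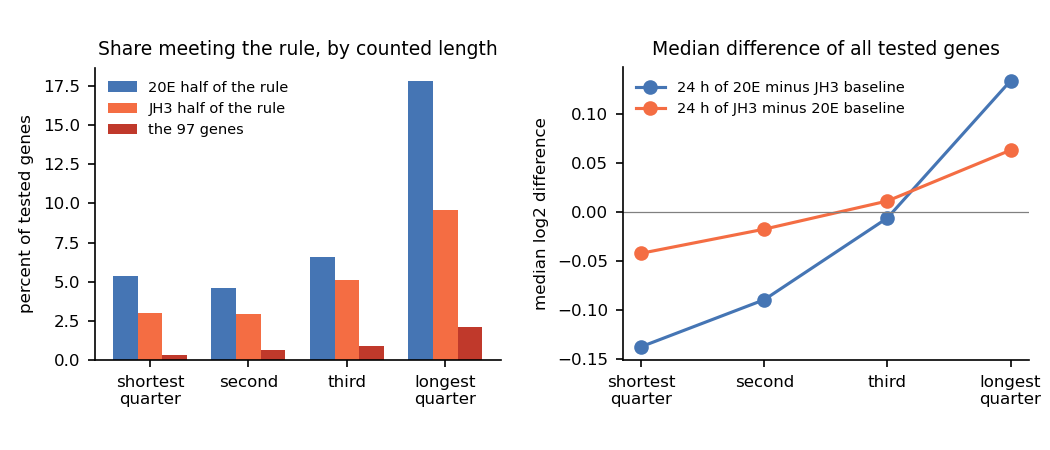
Left, percent of tested genes that met the 20E condition, the JH3 condition or both (the 97 members), in 4 groups of equal size by counted gene length; right, the median log2 difference of all tested genes in the same groups. Members make up 0.324% of the shortest group and 2.11% of the longest, and both medians run from below 0 to above 0.

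The run difference was measured in the 19 libraries that the rule did not use. Between run C and the mean of runs A and B, 0 members were called in limma (0% of tested genes), 0 with voom and 6 had an unadjusted p under 0.05 (3.92% of tested genes). The members' median was 0.11, with 82 of 97 above 0, in the direction of the difference between the run C libraries of 24 h of JH3 and a baseline mostly from runs A and B. Without replicate 2 of 30 min of 20E it was 0.20. Several members stand next to each other in the gene order of the RefSeq table of assembly Hsal_v8.6, which names no chromosomes: 7 pairs of neighbours, 14 members in all, including Cdk5alpha with LOC105181571, unc-13 with LOC105181693, MESR3 with LOC105188765 and LOC105183542 with LOC105183533. By the gene spans of that table none of these pairs overlapped, while 19 members overlapped the entry before or after them. The libraries kept strand, but whether the counting used strand is not given in the sources used here. Reads of genes that overlap, which these pairs do not, may have been shared.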

How the data were processed

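Strand-specific libraries of polyadenylated RNA were made by the dUTP method, per the labels' protocols. The authors deposited a single table of FPKM values for 14001 genes and 35 libraries. Per the submitters' processing notes, STAR, bcl2fastq, DESeq2 and featureCounts were used. No source used here names the genome build or annotation. Whole reads and gene lengths were computed from the steps between FPKM values for 12800 genes, within 0.03 of a whole number. Groups and replicate numbers came from the sample titles and the 3 sequencing runs from the descriptions. The design text calls the cultures biological replicates.

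Names came from RefSeq (assembly Hsal_v8.6), which matched 13989 identifiers and gave 3899 tested genes a symbol. Beyond names, its gene order and spans were used to find neighbours and overlaps. No sequences are shown, since no sequence table was used here. Gene lists were matched by symbol. The members and lists were chosen with earlier results of these data known.

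limma 3.58.1 in R 4.3.3 (group and run as terms, trended and robust, pseudocount 1) was tested on simulated data and fitted to 19 libraries and 9873 genes for 5 comparisons. Fold changes on this scale understate low genes and are adjusted for run. Named were up to 20 members with a symbol and a mean FPKM of at least 2 by the smaller difference, up to 6 called members each way per comparison, list members and genes at the threshold; other names were added after values were seen. Alternatives covered thresholds, pseudocounts, filters, scaling, run terms, library weights, gene length, voom, runs and single libraries.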

Additional observations from a re-analysis of the deposited data

Results flagged for a closer look

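Single libraries far from the rest of their group were sought in 138 groups of 4 to 10 values, which do not cover all members. Chance alone flags about 1 in 20 of such groups, and 6 stood out. LOC105186969 is not among these 6, though replicate 2 of 24 h of 20E had 18.2 FPKM, against 1.57 to 3.09 FPKM in the rest of its group. Eip74EF was at 23.6 FPKM in replicate 4 of 6 h of 20E, against 32.1 to 36.1 FPKM in the other 5 replicates. In replicate 5 of 30 min of 20E, the library set apart by Hr4, Gs2 was at 18.7 FPKM, against 6.91 to 8.98 FPKM in the other 4, and LOC105190091 at 35.8 FPKM, against 8.46 to 11.8 FPKM. LOC112588745 was at 25.5 FPKM in replicate 2 of 24 h of 20E, against 11.4 to 13.1 FPKM in the other 3. nAChRalpha2 was at 18.5 FPKM in replicate 4 of 30 min of 20E, against 13.5 to 13.9 FPKM in the other 4, and at 16.5 FPKM in replicate 5 of 6 h of JH3, against 23.3 to 25.2 FPKM in the other 4. Their causes were not tested.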

How the results depend on the processing

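The number of genes meeting the rule was 192 at a threshold of 0.3 and 53 at 0.5, and between 73 and 145 under the other settings that kept all libraries or whole runs. Quantile normalization gave 73 genes (65 shared with the 97), runs B and C alone 90 (62 shared), and differences taken within runs B and C 145 (42 shared). Leaving out 1 library gave 74 to 176. Between 6 h and 30 min of 20E, members called higher numbered 18 with library weights, 12 with the length trend as a covariate, 8 with all 35 libraries, 0 in run A, 2 in runs B and C and 2 with the replicate block. Over all tested genes these fits called 150, 74, 46, 3, 11 and 18 higher, against 34 in the main fit. Leaving out 1 library gave 5 to 7 members higher (24 to 45 of all tested genes), 0 lower and a median of 0.143 to 0.362. For JH3 members called higher numbered 3 with the length trend and 1 with all 35 libraries, against 25 and 9 of all tested genes. Leaving out 1 library gave 0 to 5 members higher (2 to 70 of all tested genes), 0 lower and a median of 0.0556 to 0.229. For the difference between the switches, 1 member was lower with library weights, with the length trend and in runs B and C, against 26, 42 and 2 of all tested genes. Leaving out 1 library gave 0 to 1 members either way and a median of -0.319 to 0.0507. Over all tested genes it gave 2 to 34 higher and 2 to 36 lower. For the culture hormone, members higher numbered 20 with the length trend (median 0.223), 18 with voom, 3 in runs B and C, 1 in run A and 4 with the replicate block. Over all tested genes these fits called 1181, 1037, 348, 30 and 423 higher. Members lower numbered 5 in runs B and C and 1 in run A, against 525 and 79 of all tested genes. Leaving out 1 library gave 4 to 14 members higher, 4 to 12 lower and a median of -0.062 to 0.212. Over all tested genes it gave 351 to 828 higher and 522 to 1055 lower. voom moved the median of all tested genes in this comparison to 0.15, close to the members' 0.17. For run C against runs A and B leaving out 1 library gave 0 either way and a median of 0.0718 to 0.197. The causes were not tested; fits on single runs had fewer libraries. None of the 24 called member results changed sign under its 33 alternatives. Replicate numbers did not pair the cultures: residuals of libraries with the same number had a median r of -0.13 (24 pairs, -0.649 to 0.508), against 0.03 for different numbers. Depth limited the lowest members: LOC105191416 rested on 4 to 42 reads per library.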
